A study of Bos taurus with 12 samples.

Results

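Transcripts of 7 genes of T cells and cytotoxic lymphocytes, CD3D, CD3E, CD8A, CD2, NKG7, LTB and PTPRC, were followed through growth plate chondrocytes of cattle. All probe sets that the platform annotation gives these symbols were taken, 14 of 24016 probe sets that are not controls and 7 of 9155 named genes. The genes were chosen by their measured difference between the zones in an earlier look at the same arrays, so that difference is given below as a description, with no test. All 7 encode proteins of white blood cells, and none is known as a cartilage gene.

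The study set the lightest growth plate cells, taken as the hypertrophic zone (HZ), against the heaviest, taken as the reserve zone (RZ). Both fractions came from the distal metacarpus of dairy cattle, all male and under 10 months of age, by 4 hours of collagenase digestion and separation by density, and the labels name no treatment and no step that removed blood or marrow cells. There were 12 single-colour arrays, 6 of HZ and 6 of RZ, in 6 numbered pairs. The pairs are described as independent, but no label says that each was a single animal, so p-values speak only of the spread from pair to pair. The number of arrays limits the precision.

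T cells recognise antigen through a receptor whose signal is carried by the CD3 chains, helped by the coreceptor CD8 on cytotoxic cells, the adhesion protein CD2 and the phosphatase CD45, which PTPRC encodes. Cytotoxic T cells and natural killer (NK) cells store killing proteins in granules, with NKG7 in the granule membrane, and many lymphocytes carry lymphotoxin beta, the product of LTB. Cartilage has no blood vessels, while the bone and marrow next to the growth plate are rich in vessels and blood-forming cells.

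The samples carried high signals of chondrocyte genes. The 6 measured ones, COL2A1, ACAN, COL9A1, COL11A2, HAPLN1 and CNMD, which encode cartilage collagens, the main proteoglycan, its link protein and chondromodulin, had mean signals of 1107 to 24316, where the median of all probe sets was 96.7 on each array. SOX9 and MATN3 had no probe set of that name. Of the 6, 0 rose and 0 fell, with a median difference of 0.10 log2 units between HZ and RZ and 0 at an unadjusted p under 0.05 (limma), a threshold that 22.2% of all probe sets met.

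Arrays RZ-1 and RZ-2 stood apart. The signals of the 7 lymphocyte genes, summed over the brightest probe set of each, came to 337.8 to 476.1 on the HZ arrays, against 1310 on RZ-1, 1348 on RZ-2 and 447.5 to 702.3 on RZ-3 to RZ-6. Pairs 1 and 2 also differed from pairs 3 to 6 in the smallest step between deposited values of dim probe sets, 0.0237 to 0.0318 against 0.00884 to 0.011, in both zones. Differences are therefore given also within pairs 1 and 2 and within pairs 3 to 6. In bulk RNA such as this, fewer lymphocytes and less RNA per lymphocyte cannot be told apart.

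All 14 lymphocyte probe sets were dim to middling. Their mean signals over the 12 arrays ran from 5.15 to 127.3, between percentiles 3.26 and 55.1 of all probe sets, and 13 of them lay below the median level. Only the brighter LTB probe set lay above it. No detection calls were among the files used, so whether a dim probe set stood above background was not determined.

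Taking the brightest probe set of each gene, all 7 were lower in HZ on average. Differences on the log2(signal + 16) scale, which understates changes of dim probe sets, ran from -1.72 for PTPRC to -0.17 for CD3D, with a median of -0.81, while the median over all probe sets was -0.01. CD8A, CD2 and NKG7 were lower in HZ in 6 of 6 pairs, as were 7.15% of all probe sets. CD3E, LTB and PTPRC were lower in 5 pairs and CD3D in 4. Only for NKG7 did all HZ arrays lie below all RZ arrays, as they did for 1.21% of all probe sets. For 0 of the 14 lymphocyte probe sets did all HZ arrays lie above all RZ arrays, as they did for 1.68% of all probe sets. The zone contrast chose the genes, so nothing is read from these shares.

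**Figure D1:**
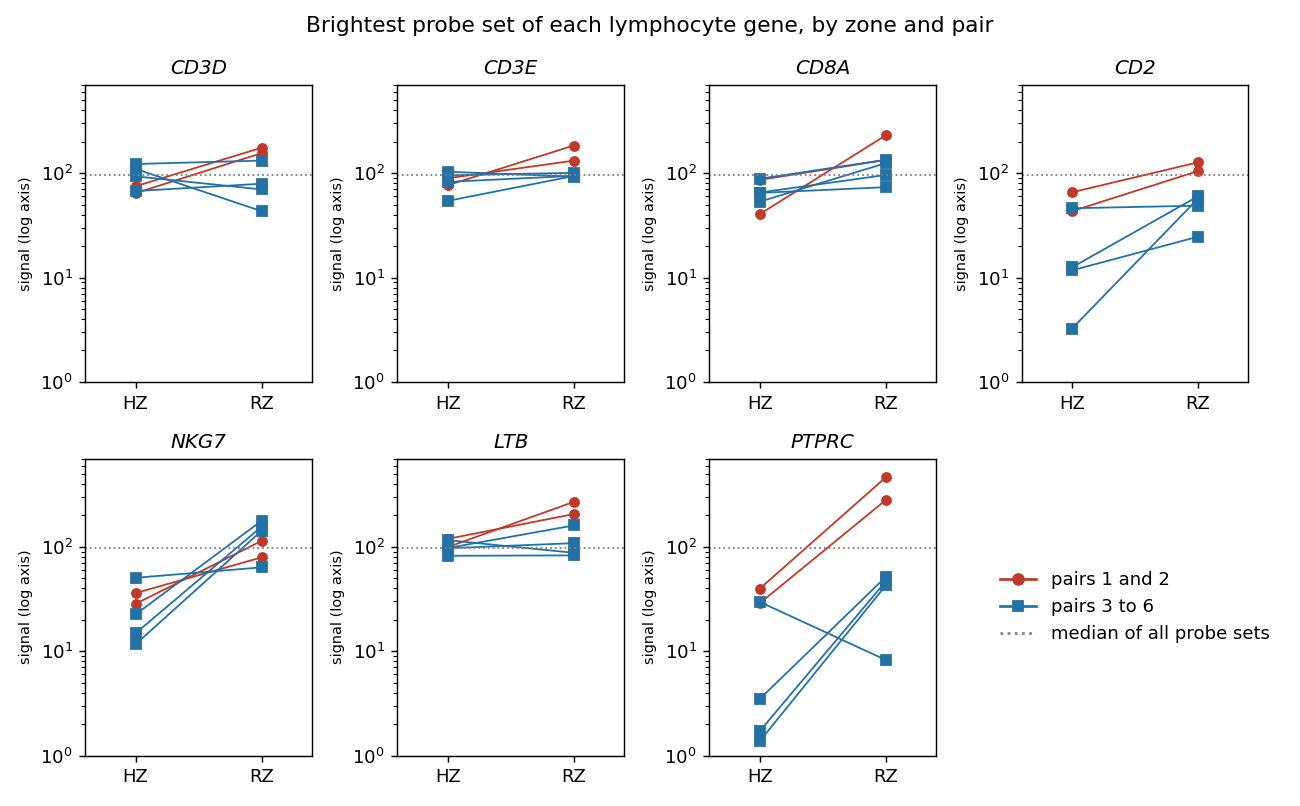
Signal (log axis, recovered units) of the brightest probe set of each of the 7 lymphocyte genes on every array, HZ at the left and RZ at the right of each panel. Lines join the arrays of a pair, red circles are pairs 1 and 2, blue squares pairs 3 to 6, and the dotted line is the median of all probe sets. NKG7 has HZ arrays of 11.7 to 50.6 and RZ arrays of 63.7 to 178.1 with no overlap, and PTPRC has its highest values, 281.5 and 464.6, on RZ-1 and RZ-2.

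The CD3 chains, which carry the receptor's signal into the cell, had small average differences within pairs 3 to 6. CD3D, the delta chain, had signals of 64.4, 74.9, 109.7, 122.3, 67.4 and 93.2 on HZ-1 to HZ-6, against 155.6, 175.3, 43.2, 132.0, 79.2 and 69.8 on RZ-1 to RZ-6. The zones overlapped, and in pairs 3 and 6 the HZ array was the higher. The SE of each difference, here and below, comes from the limma fit, which draws the variance toward that of all probe sets. It can thus differ from the SE of the 6 pair differences alone, whose SD was 0.84 for CD3D. The mean difference was -0.17 ± 0.28 log2 units (SE, 6 pairs), -1.08 within pairs 1 and 2 and 0.29 within pairs 3 to 6. Leaving out pair 1 or pair 2 turned it to 0.01 at most, just above 0, so its direction rests on those pairs.

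CD3E, the epsilon chain, had signals of 89.3, 76.6, 82.5, 95.3, 54.2 and 103.1 on HZ-1 to HZ-6, against 131.8, 184.0, 94.2, 100.8, 93.8 and 92.8 on RZ-1 to RZ-6. Its RZ arrays of pairs 3 to 6 lay close together, and HZ-6 was higher than its own RZ array. The mean difference was -0.39 ± 0.18 (SE), with -0.80 within pairs 1 and 2 and -0.19 within pairs 3 to 6, and it was -0.25 without pair 2. In the reference assembly ARS-UCD2.0 the genes of the epsilon, delta and gamma chains, CD3E, CD3D and CD3G, are direct neighbours. CD3G was not among the chosen genes, and is named here after its values were seen. It had -0.78 ± 0.39 (SE; limma adjusted p = 0.281), with -1.90 within pairs 1 and 2 and -0.22 within pairs 3 to 6.

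CD8A, the alpha chain of the coreceptor that binds class I molecules of the major histocompatibility complex (MHC), was lower in HZ in every pair. It had signals of 40.6, 86.2, 65.2, 53.3, 64.7 and 88.4 on HZ-1 to HZ-6, against 230.1, 133.8, 96.1, 124.8, 73.4 and 134.3 on RZ-1 to RZ-6. RZ-1 was the highest array and RZ-5 lay within the HZ range. The difference was -0.81 ± 0.24 (SE), or 1.75-fold lower, with -1.34 within pairs 1 and 2 and -0.54 within pairs 3 to 6, and it was -0.54 without pair 1. CD8B, the beta chain and the neighbour of CD8A in the reference, averaged 21.9 ± 8.39 in HZ and 19.1 ± 7.92 in RZ (SD, n = 6 each), a difference of 0.10 ± 0.15 (SE; limma adjusted p = 0.755).

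CD2, an adhesion protein of T and NK cells, was lower in HZ by about as much in both sets of pairs. CD2 signals were at 65.5, 43.2, 11.7, 46.1, 12.5 and 3.23 on HZ-1 to HZ-6, against 126.9, 104.6, 24.6, 48.8, 59.9 and 56.9 on RZ-1 to RZ-6. The zones overlapped, since RZ-3 to RZ-6 were all lower than HZ-1, while in each pair the HZ array was the lower. The difference was -0.06 in pair 4 and -1.92 in pair 6. On average it was -0.96 ± 0.23 (SE), with -0.92 within pairs 1 and 2 and -0.99 within pairs 3 to 6. Its size depends on the added constant, at -1.54 with 1 added, -0.50 with 64 added and -1.63 on the deposited ratio. Both zones were dimmer in pairs 3 to 6, with means of 18.4 in HZ and 47.6 in RZ, than in pairs 1 and 2, with 54.4 in HZ and 115.8 in RZ.

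NKG7 was the lymphocyte gene whose zones were separate. It had signals of 28.5, 36.1, 50.6, 14.9, 11.7 and 22.6 on HZ-1 to HZ-6, against 114.2, 79.4, 63.7, 156.4, 142.9 and 178.1 on RZ-1 to RZ-6. The highest RZ arrays were those of pairs 4, 5 and 6, not RZ-1 and RZ-2. The difference was -1.67 ± 0.30 (SE), with -1.21 within pairs 1 and 2 and -1.90 within pairs 3 to 6, and -2.19 with 1 added or -1.01 with 64 added in place of 16. In pair 3 it was -0.26, the smallest of the 6.

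LTB, which anchors the lymphotoxin heterotrimer to the cell membrane, varied little among HZ arrays and widely among RZ arrays. LTB had signals of 99.6, 119.3, 82.2, 116.0, 97.5 and 97.1 on HZ-1 to HZ-6, against 269.7, 206.3, 82.9, 87.8, 160.5 and 108.6 on RZ-1 to RZ-6. RZ-3, RZ-4 and RZ-6 lay within the HZ range, and in pair 4 the HZ array was the higher. The difference was -0.41 ± 0.22 (SE), with -1.01 within pairs 1 and 2 and -0.11 within pairs 3 to 6, and it was -0.23 without pair 1.

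PTPRC, whose CD45 phosphatase sits on nearly all white blood cells, varied most from pair to pair of the 7 brightest probe sets, with an SD of 1.41 log2 units over the 6 differences. PTPRC had signals of 28.9, 39.8, 1.38, 3.5, 29.7 and 1.72 on HZ-1 to HZ-6, against 281.5, 464.6, 42.8, 51.6, 8.25 and 46.8 on RZ-1 to RZ-6. Pair 5 ran the other way, with HZ higher by 0.92 log2 units. The difference was -1.72 ± 0.43 (SE), with -2.92 within pairs 1 and 2 and -1.12 within pairs 3 to 6. On HZ-3, HZ-4 and HZ-6 the signal was far under the added constant of 16, and the difference was -2.82 with 1 added, -1.02 with 64 added and -3.10 on the deposited ratio, so no fold is given. PTPRC and NKG7 have no firm order in size, since without pair 1, 2 or 3 and within pairs 3 to 6 the difference was larger for NKG7.

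Pair by pair, 7 of the 7 genes, by their brightest probe sets, were lower in HZ in pairs 1 and 2, 6 in pairs 3, 4 and 5, and 5 in pair 6. The median difference of the 7 was -1.31 in pair 1, -1.03 in pair 2, -0.26 in pair 3, -0.10 in pair 4, -0.64 in pair 5 and -0.53 in pair 6. The median over all probe sets stayed between -0.08 and 0.10 in each pair. Pairs 1 and 2 thus had the largest shifts of the 7 as a group, although NKG7 and CD2 differed more in pairs 5 and 6. Over all 14 lymphocyte probe sets 10 were lower in HZ in pairs 1, 2 and 6, 7 in pairs 3 and 4, and 9 in pair 5. The median of the 14 was -0.65, -0.63, 0.01, 0.12, -0.13 and -0.33 in pairs 1 to 6.

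The 7 dimmer probe sets of the same genes did not repeat the direction of the brighter ones. Of them 2 were lower and 5 higher in HZ, with a median of 0.19, and over all 14 probe sets 9 were lower and 5 higher, with a median of -0.32. The dimmer CD3D probe set was at -0.60 ± 0.34 (SE) and lower in 4 pairs. The dimmest of the PTPRC probe sets averaged 7.74 ± 8.01 in HZ and 4.07 ± 1.17 in RZ (SD, n = 6 each), close to the bottom of the range, with a difference of 0.19 ± 0.18 (SE). The PTPRC probe set of middle brightness was at -0.24 ± 0.29 (SE).

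NKG7 gave opposite directions on its probe sets. The dimmer NKG7 probe set had signals of 78.6, 54.7, 91.9, 24.5, 5.8 and 109.4 on HZ-1 to HZ-6, against 49.0, 51.0, 16.3, 16.8, 5.75 and 14.8 on RZ-1 to RZ-6. It was higher in HZ in 6 of 6 pairs, as were 6.85% of all probe sets, although in pair 5 the difference rounded to 0.00, and its zones overlapped. The difference was 0.78 ± 0.29 (SE), against -1.67 on the brighter probe set. Which of these measures the NKG7 transcript better was not tested.

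LTB showed the same split. The dimmer LTB probe set had signals of 57.1, 83.7, 46.9, 85.4, 66.3 and 73.2 on HZ-1 to HZ-6, against 41.4, 80.4, 45.9, 58.8, 43.2 and 47.9 on RZ-1 to RZ-6. It too was higher in HZ in 6 of 6 pairs, by 0.30 ± 0.14 (SE). A probe set with the same ID stem as both LTB probe sets is annotated to NCR3, an activating receptor of NK cells whose gene lies near LTB in the reference order NCR3, AIF1, LST1, LTB, TNF and LTA. NCR3 was at 0.28 ± 0.16 (SE; limma adjusted p = 0.34).

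The other CD2 probe sets, which share an ID stem, were at 0.13 ± 0.22 and 0.21 ± 0.18 (SE), against -0.96 on the brightest. On the brighter of these the mean of the 6 arrays was 28.3 ± 9.29 in HZ and 27.2 ± 18.8 in RZ (SD). Without pair 4 its difference turned to -0.02. With zone means removed, probe sets of the same gene correlated over the 12 arrays at 0.74 for CD3D, 0.25 for NKG7, 0.20 for LTB, between -0.14 and 0.39 for CD2 and between -0.26 and 0.49 for PTPRC. With the sets of pairs centred apart as well, the CD3D probe sets correlated at 0.68, and the brightest and the dimmest CD2 probe sets at 0.89.

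**Figure D2:**
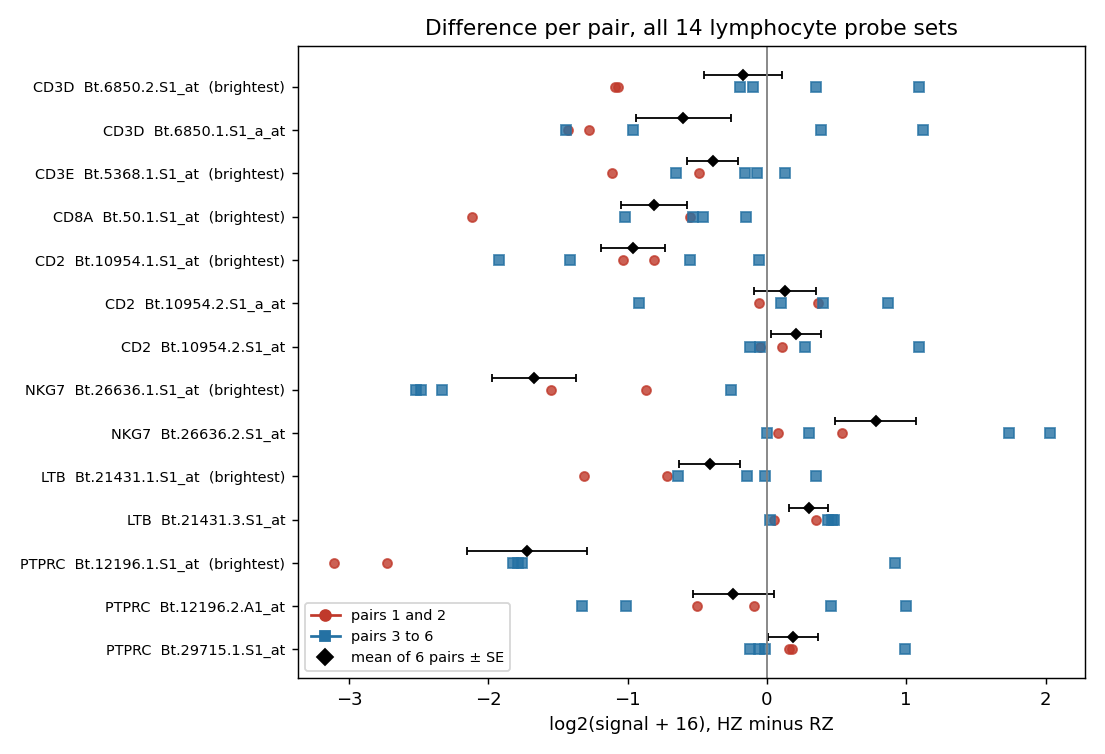
Difference of log2(signal + 16), HZ minus RZ, in each pair (red circles, pairs 1 and 2; blue squares, pairs 3 to 6) and as the mean of 6 pairs with its SE from the limma fit (black diamonds), for all 14 lymphocyte probe sets. The 7 brightest probe sets have means of -1.72 to -0.17, and 5 of the 7 others have means above 0, with the dimmer NKG7 probe set highest at 0.78.

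Apart from NKG7, the genes tended to vary together across arrays, and less so once the sets of pairs were centred apart. After removal of zone means, the 21 correlations between their brightest probe sets over 12 arrays had a median of 0.43, from -0.30 to 0.70, with 18 above 0. CD3D and CD3E correlated at 0.70, CD2 and LTB at 0.68. NKG7 with the other 6 gave -0.30 to 0.10. Over the 6 HZ arrays alone CD3D with CD3E gave 0.52 and CD2 with LTB 0.60, against 0.78 and 0.93 over the 6 RZ arrays. CD3D with PTPRC gave -0.87 over the HZ arrays and 0.74 over the RZ arrays. With the means of each zone removed separately in pairs 1 and 2 and in pairs 3 to 6, the median was 0.07, from -0.56 to 0.57, with 12 above 0. The 0.57 was NKG7 with CD3D, and NKG7 with CD8A then gave 0.36. The 12 points are not independent, since arrays form pairs and RZ-1 and RZ-2 lie far out, so these values only describe these arrays.

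**Figure D3:**
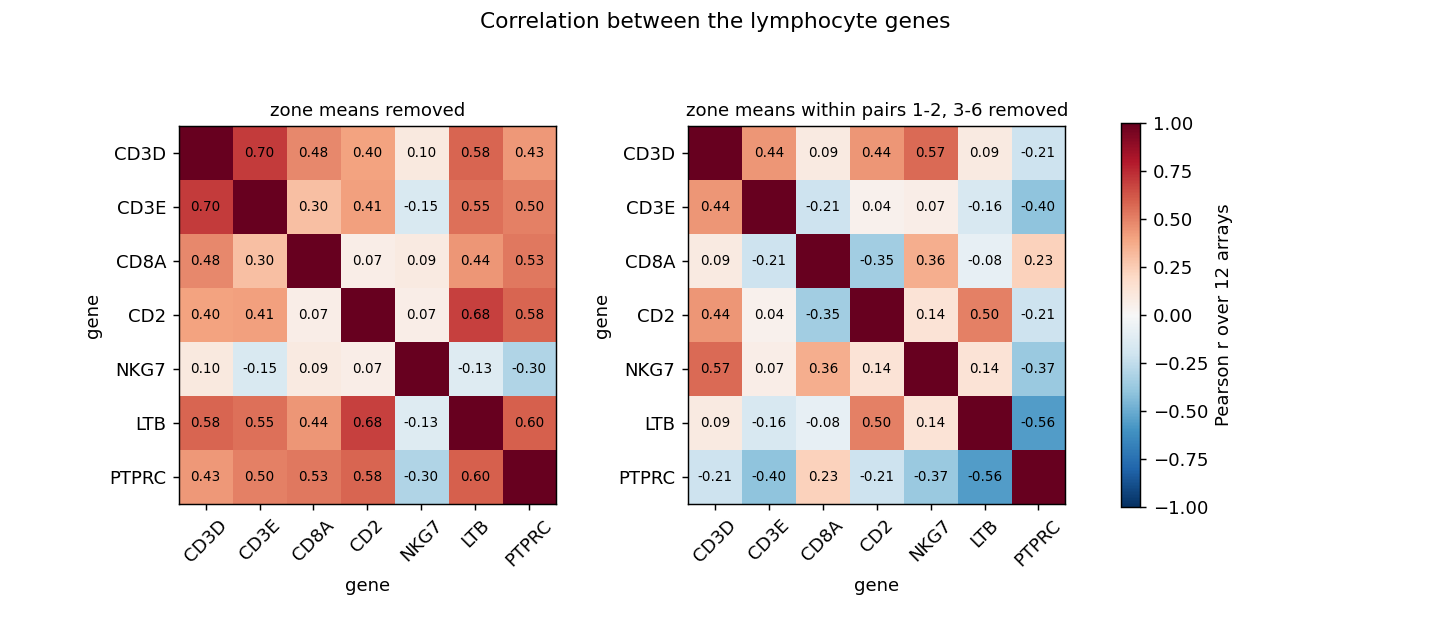
Pearson r between the brightest probe sets of the 7 genes over 12 arrays, after removal of zone means (left) and of zone means within each set of pairs (right). The median of the 21 values is 0.43 at the left and 0.07 at the right, and CD3D with CD3E is 0.70 at the left and 0.44 at the right.

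Outside the 7 genes, the array profile most like the mean of CD2, CD3D, CD3E and CD8A was sought among 9656 probe sets with 1 gene symbol and a mean signal of at least 50. After removal of zone means the 8 highest r over 12 arrays were 0.91 for GMFG, 0.91 for PRDM1, 0.90 for ACSL5, 0.89 for SMIM20, 0.89 for TMEM62, 0.89 for TAP1, 0.89 for UBD and 0.88 for JCHAIN. TAP1 carries peptides to class I molecules, PRDM1 is a transcription factor of plasma cells and effector T cells, JCHAIN joins secreted antibodies, and UBD is a ubiquitin-like protein. With the means of each zone removed within each set of pairs, r was 0.92 for PRDM1, 0.86 for SMIM20, 0.80 for GMFG, 0.78 for ACSL5, 0.76 for TAP1, 0.70 for TMEM62, 0.58 for UBD and 0.51 for JCHAIN. Picked as the highest among 9656 over 12 arrays, these r only describe these arrays. Of the 8, UBD fell in HZ, by 2.70 ± 0.40 log2 units (SE; limma adjusted p = 0.0075), and the other 7 did not pass. GMFG, SMIM20 and TMEM62 were higher in HZ on average, at 0.92, 0.08 and 0.17, while PRDM1, ACSL5, TAP1 and JCHAIN were lower. Without removal of zone means r was 0.23 for GMFG. UBD had 3.3 to 57.8 on the HZ arrays, against 1427 on RZ-1, 720.9 on RZ-2 and 74.9 to 219 on RZ-3 to RZ-6.

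The wider T cell list asked whether other genes of the receptor, its kinases and its coreceptors differed between HZ and RZ. Of 43 listed genes 22 were measured, and 1 of these fell and 0 rose in HZ (limma with pairs as a block and an adjusted p under 0.05), where 2.96% of all probe sets fell and 3.26% rose, 6.22% in all. The median of the 22 was -0.03, with 12 lower and 10 higher and 5 at an unadjusted p under 0.05, against 22.2% of all probe sets. The 7 genes above are not counted in it. The receptor's own constant chains, listed as TRAC, TRBC1, TRDC and TRGC1, had no probe set of that name.

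The gene that fell was ICOS, a costimulatory receptor of activated T cells. ICOS had signals of 75.3, 41.7, 7.52, 50.2, 21.7 and 40.8 on HZ-1 to HZ-6, against 174.2, 152.9, 36.7, 51.7, 36.9 and 80.2 on RZ-1 to RZ-6. It was lower in HZ in 6 of 6 pairs, with overlapping zones, and the difference was -0.84 ± 0.20 (SE; limma adjusted p = 0.0397). It was -1.30 within pairs 1 and 2 and -0.61 within pairs 3 to 6. The call held without pair 4, was lost without any other of the 6 pairs, and was lost without the pair term (limma adjusted p = 0.283). A dimmer ICOS probe set did not pass, at -0.41 ± 0.32 (SE; limma adjusted p = 0.506), and was lower in HZ in 4 of 6 pairs. Its difference was -1.54 within pairs 1 and 2 and 0.15 within pairs 3 to 6.

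Of the other T cell genes, those with the smallest adjusted p did not pass. IL2RA, the alpha chain of the interleukin 2 receptor, was at -0.54 ± 0.14 (SE; limma adjusted p = 0.0555) and lower in 6 of 6 pairs. CD69, an early activation marker, averaged 10.0 ± 9.42 in HZ and 66.4 ± 77.7 in RZ (SD, n = 6 each; limma adjusted p = 0.141). CD4, the coreceptor of helper T cells, which macrophages can also carry, was at 0.38 ± 0.15 (SE; limma adjusted p = 0.18) and higher in HZ in 6 of 6 pairs. CD96 and CD6, surface receptors of T cells, were at -0.47 and -0.36. Named after their values were seen, CD247, the zeta chain of the receptor, was at -0.03 ± 0.18 (SE) and the kinase gene ZAP70 at -0.22 ± 0.24 (SE).

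Among cytotoxic granule and NK cell genes, 0 of 21 measured rose or fell in HZ (limma), with 7 at an unadjusted p under 0.05, where 22.2% of all probe sets were, and a median of 0.02. The differences went both ways, from -1.34 for SRGN, the granule proteoglycan serglycin, to 1.72 for GNLY. CTSW, a protease of cytotoxic cells, was at -1.12 ± 0.44 (SE; limma adjusted p = 0.166), and the chemokine CCL5 at -1.11 ± 0.34 (SE; limma adjusted p = 0.0906). SRGN, CTSW and CCL5 were at -2.64, -2.72 and -2.23 within pairs 1 and 2. Within pairs 3 to 6 they were at -0.69, -0.33 and -0.54. KLRA1 and KLRJ1, lectin-like receptor genes of NK cells, were at -0.59 and 0.80. These were -0.79 and 0.41 within pairs 1 and 2, and -0.49 and 0.99 within pairs 3 to 6. PRF1, the pore-forming perforin, named after its values were seen, averaged 93.5 ± 27.7 in HZ and 93.3 ± 73.0 in RZ (SD, n = 6 each). Its difference was -0.75 within pairs 1 and 2 and 0.75 within pairs 3 to 6.

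GNLY encodes the antimicrobial granule protein granulysin, called NK-lysin in cattle. Its average direction was opposite to that of the brighter NKG7 probe set and the same as that of the dimmer NKG7 probe set. GNLY had signals of 343.6, 65.6, 540.5, 978.7, 548.5 and 832.8 on HZ-1 to HZ-6, against 242.1, 183.4, 92.2, 142.7, 50.2 and 86.8 on RZ-1 to RZ-6. HZ was higher in 5 of 6 pairs and lower in pair 2, and the difference was 1.72 ± 0.53 (SE; limma adjusted p = 0.0891). It was 2.79 within pairs 3 to 6, where it passed (limma adjusted p = 0.00381), and -0.40 within pairs 1 and 2. The effect of pairs 1 and 2 minus that of pairs 3 to 6 was -3.19, which did not pass over all probe sets (limma adjusted p = 0.299). Cattle carry several closely related NK-lysin genes, so the probe set may take up more than 1 of them.

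Partners of the chosen proteins gave 0 calls among 10 measured genes, with a median of -0.27. At an unadjusted p under 0.05 (limma) were 5 of them, and 22.2% of all probe sets. They include B2M and BOLA, a light and a heavy chain gene of the class I molecules that CD8 binds, at -0.68 ± 0.25 and -1.16 ± 0.36 (SE), with adjusted p of 0.15 and 0.0949 by limma. BOLA was at -2.46 within pairs 1 and 2 and -0.50 within pairs 3 to 6. In the lymphotoxin list, 1 of 14 measured genes fell and 0 rose in HZ, where 2.96% of all probe sets fell and 3.26% rose. The median of that list was -0.10.

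That gene was NFKB2, which encodes the NF-kappa-B subunit processed downstream of the lymphotoxin beta receptor. Its signals ran from 15.1 to 217.9 with a median of 106.5 in HZ, against 95.5 to 486.6 with a median of 251.8 in RZ. NFKB2 fell by 1.15 ± 0.18 log2 units in HZ (SE; limma adjusted p = 0.00931), in 6 of 6 pairs, at -1.35 within pairs 1 and 2 and -1.05 within pairs 3 to 6. Without the pair term the adjusted p was 0.212 by limma, and with 1 added in place of 16 it was 0.0502. TNF, an LTB neighbour, was at -0.84 ± 0.24 (SE; limma adjusted p = 0.0755) and ICAM1, an adhesion target of the pathway, at -0.59 ± 0.17 (SE; limma adjusted p = 0.0683).

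**Figure D4:**
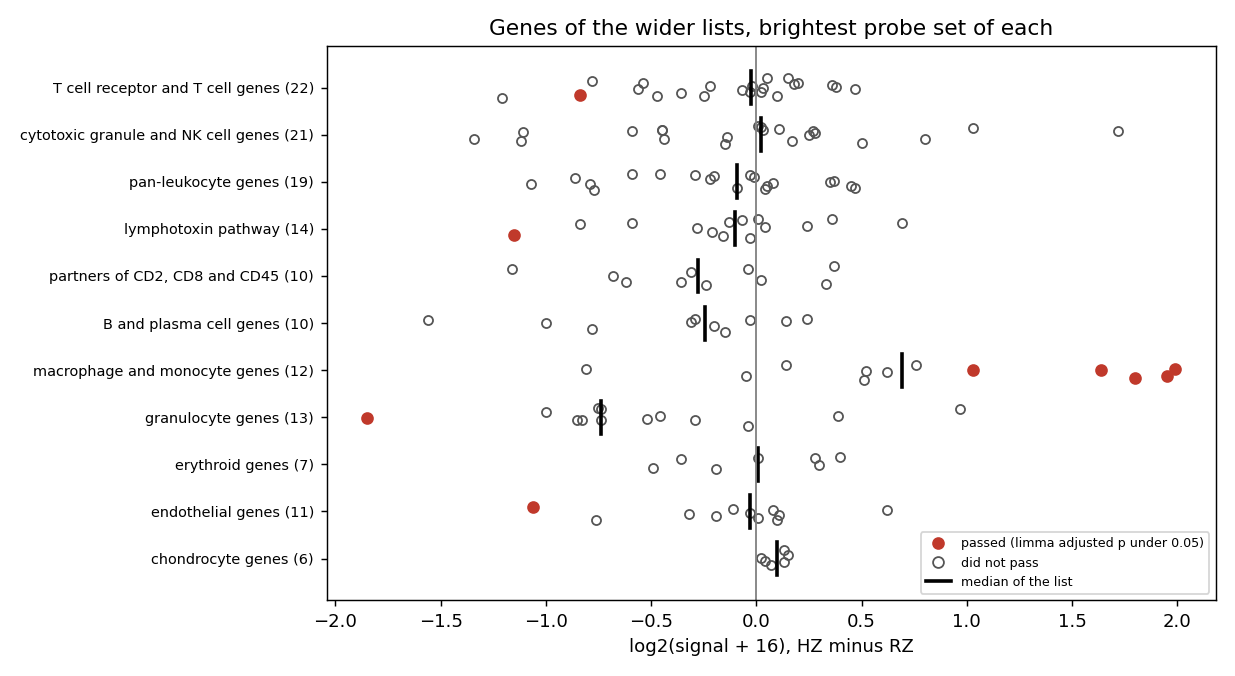
Difference of log2(signal + 16), HZ minus RZ, of every measured gene of 11 lists, by its brightest probe set. Filled red points passed (limma adjusted p under 0.05), open points did not, black bars are list medians, and numbers in brackets are genes measured. Among T cell genes only ICOS passed at -0.84, and 5 macrophage genes passed between 1.03 and 1.99.

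Markers of other blood cells differed between arrays beside the lymphocyte genes, and their part in the results was not tested. Summed signals of 10 B and plasma cell genes were 769.2 to 2019 on the HZ arrays, against 8308 on RZ-1, 7116 on RZ-2 and 861 to 1705 on RZ-3 to RZ-6. Summed signals of 13 granulocyte genes were 592.4 to 2936 on the HZ arrays, against 12672 on RZ-1, 8214 on RZ-2 and 753.5 to 1563 on RZ-3 to RZ-6. RZ-1 and RZ-2 thus carried more signal of several blood lineages, not of lymphocytes alone. Summed cytotoxic genes, 21 in number, gave 2418 to 4816 on the HZ arrays, against 7109 on RZ-1, 8460 on RZ-2 and 1758 to 2898 on RZ-3 to RZ-6. A few bright genes carry these sums, which do not describe every gene of a list. On RZ-1, IGHM and JCHAIN gave 5517 and 2397 of the B cell sum, and CATHL1 gave 5802 of the granulocyte sum. SRGN, XCL1 and CCL4 gave 2215, 1345 and 1073 of the cytotoxic sum there. Genes with a mean signal under percentile 10 of all probe sets numbered 3 of 22 in the T cell list, 3 of 21 in the cytotoxic list, 1 of 10 in the B cell list and 0 of 13 in the granulocyte list, and 0 defining markers were at 0.

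The sums over 19 genes shared by most white blood cells were 1328 to 2182 on the HZ arrays, against 3409 on RZ-1, 3425 on RZ-2 and 1234 to 1466 on RZ-3 to RZ-6. In pairs 3 to 6 that sum was the higher in HZ in 3 of 4 pairs. The sum of the 7 lymphocyte genes was lower in HZ in all 4. Those 7 were chosen by the zone contrast, so nothing is read from this difference between the sums. The T cell list had 763.3 to 1250 on the HZ arrays, against 1906 on RZ-1, 1563 on RZ-2 and 753.5 to 1256 on RZ-3 to RZ-6. Of single genes, 0 of the 10 B cell genes and 0 of the 19 white blood cell genes rose or fell (limma). At an unadjusted p under 0.05 were 3 and 6 of them, and 22.2% of all probe sets. The B cell median was -0.25, with 8 lower and 2 higher in HZ. The white blood cell median was -0.09, with 12 lower and 7 higher. Of 13 granulocyte genes 1 fell and 0 rose (limma), where 2.96% of all probe sets fell and 3.26% rose, and 6 had an unadjusted p under 0.05. Their median was -0.74, with 11 lower and 2 higher, at -1.75 within pairs 1 and 2 and -0.23 within pairs 3 to 6. CATHL1, a cathelicidin, was the 1 that fell, by 1.85 ± 0.42 (SE; limma adjusted p = 0.0327). It was at -2.90 within pairs 1 and 2 and -1.32 within pairs 3 to 6, and its call was lost without pair 1, 2, 5 or 6.

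Macrophage genes were mostly higher in HZ. Of 12 measured 5 rose in HZ and 0 fell, with a median of 0.69 (limma), where 3.26% of all probe sets rose and 2.96% fell. On average 10 were higher and 2 lower. The lower ones, named after their values were seen, were CD14 at -0.81 ± 0.26 and FCER1G at -0.05 ± 0.38 (SE). A dimmer CD14 probe set was at -1.02 ± 0.22 (SE; limma adjusted p = 0.0254). AIF1, a calcium-binding protein of macrophages, rose by 1.99 ± 0.18 (SE; limma adjusted p = 0.00112), with signals of 36.1 to 500.6 in HZ, against 1.82 to 129.6 in RZ. The complement genes C1QA, C1QB and C1QC rose by 1.95, 1.64 and 1.80, and CSF1R, the receptor of a macrophage growth factor, named after its values were seen, by 1.03. Without the pair term 0 of the 12 passed, and C1QA lost its call without pair 4 and without pair 6 (limma adjusted p = 0.0666 and 0.053). Of 11 endothelial genes 1 fell and 0 rose in HZ, with 6 lower, 5 higher and a median of -0.03. Their summed signal was 989.9 to 1144 in HZ and 1097 to 1461 in RZ, lower in HZ in 6 of 6 pairs. So was that of the 7 lymphocyte genes, which were chosen by this contrast. PECAM1, an adhesion protein of vessel lining and blood cells, fell by 1.06 ± 0.23 (SE; limma adjusted p = 0.0279), a call that held without pair 3 and was lost without any other pair. Of 7 red cell genes 0 passed and 0 had an unadjusted p under 0.05 (limma), which 22.2% of all probe sets had.

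**Figure D5:**
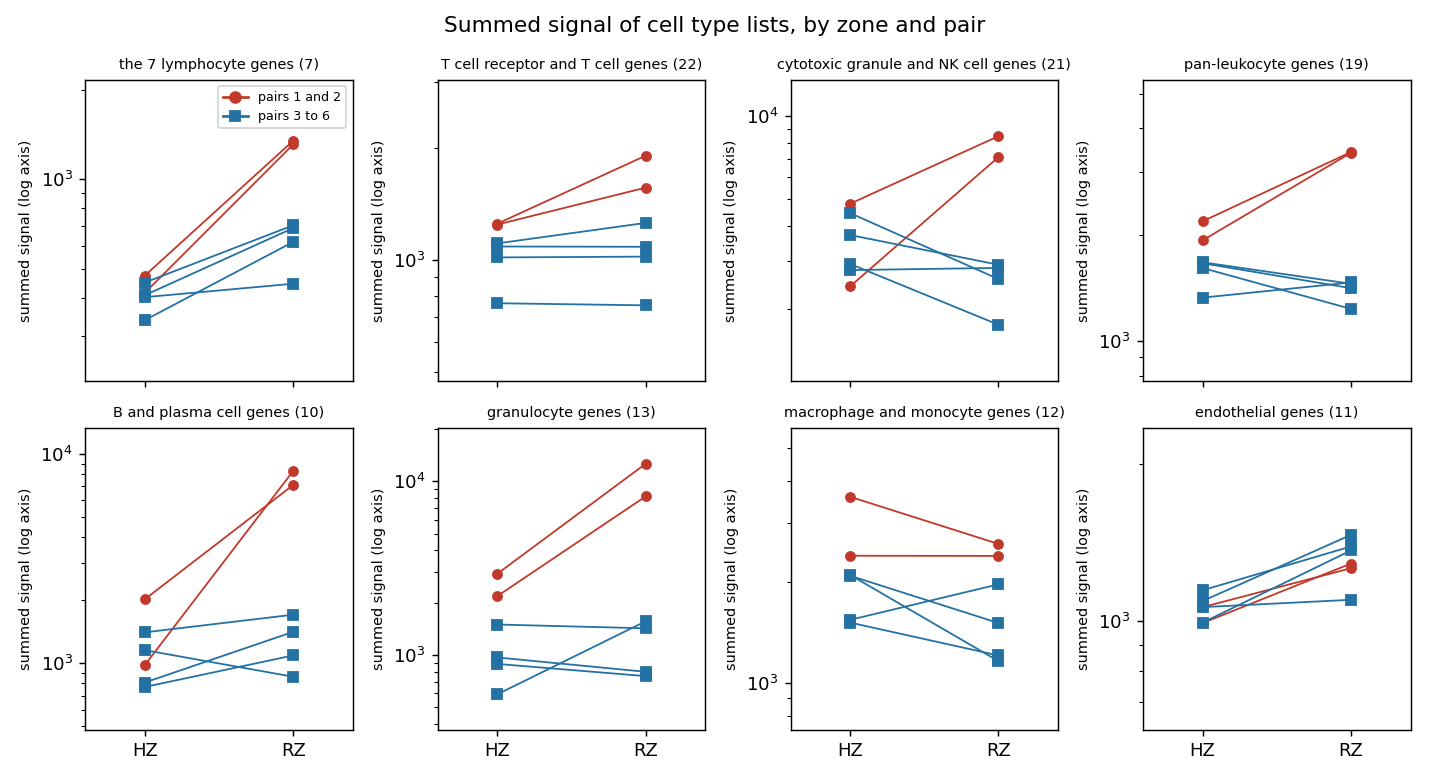
Summed signal (log axis) of the 7 lymphocyte genes and of 7 cell type lists, 1 brightest probe set per gene, HZ at the left and RZ at the right of each panel, with lines joining pairs. The lymphocyte, T cell, cytotoxic, white blood cell, B cell and granulocyte sums are highest on RZ-1 and RZ-2 (red). The sum of the 7 lymphocyte genes, which were chosen by the zone contrast, is lower in HZ in 6 of 6 pairs.

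Of RNA quality signs, the log2 ratio of the 3′ to the 5′ actin control was 2.27 to 3.96 in HZ and 1.77 to 2.87 in RZ, higher in HZ in 5 of 6 pairs. For the GAPDH control it was -0.088 to 1.46 in HZ and -0.201 to 0.505 in RZ, also higher in 5 of 6 pairs. The part of these in the differences of the lymphocyte genes was not tested.

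Whether the zone effect itself differed between the sets of pairs was tested across all probe sets in a single fit. For 2 of 24016 probe sets, 0.00833%, it differed at an adjusted p under 0.05 (limma), and 5.03% had an unadjusted p under 0.05. Of the genes in the 11 lists, 0 were among them. At an unadjusted p under 0.05 were 3 of 22 T cell genes, 8 of 21 cytotoxic genes, 7 of 19 white blood cell genes and 8 of 13 granulocyte genes. In the B cell list there were 3 of 10, in the macrophage list 2 of 12 and among the partners 1 of 10. The lymphotoxin, red cell, endothelial and chondrocyte lists had 0. The 7 lymphocyte genes are not in these lists, and this test is not reported for them. In pairs 1 and 2 the differences of CD3D, CD3E, CD8A, LTB and PTPRC were larger, and those of CD2 and NKG7 were not. These are therefore only described, and not shown to differ between the sets of pairs.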

How the data were processed

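Per the labels, total RNA was extracted with RNA STAT-60 and labelled with biotin. The deposited values are linear ratios, 1 per probe set and array, whose normalization and summary of probes are not given here. The divisor was the probe set's median over the 12 arrays for 21901 probe sets and a fixed value for 2227. Values of an array are multiples of a smallest step, from which signals were recovered for all 24128 probe sets (112 controls); the unit assumes that 1 step is 0.1, which no source states. Array medians were then 96.65 to 96.69.

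Zones were compared on log2(signal + 16) with limma 3.58.1 in R 4.3.3, the pair as a fixed block and Benjamini-Hochberg adjustment over 24016 probe sets, after tests on simulated data. The pairing comes from the series description and the numbers in the titles. Same-numbered arrays deviated together, with correlations of 0.124 to 0.447. The SE of a difference is that of the limma fit, with its variance drawn toward that of all probe sets. A gene stands by its brightest probe set. Symbols come from the platform annotation, which names 1 gene for 13292 probe sets, several for 86 and none for 10638. Neighbours come from RefSeq on ARS-UCD2.0, and no sequences were used.

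The genes, the 11 lists and the rules were chosen with earlier results of these data known. Named were all chosen probe sets, the 6 T cell and 6 cytotoxic genes and 4 genes of each other list with the smallest adjusted p, the measured chondrocyte genes and the 8 genes most like the T cell profile. Alternatives were added constants of 1 and 64, the deposited ratio, quantile normalization, no pair term, only probe sets with a mean signal of at least 50, every probe set counted, and subsets of pairs. Split correlations and the test between sets of pairs were added after seeing the data.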

Additional observations from a re-analysis of the deposited data

Results flagged for a closer look

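In each zone's 6 arrays, single arrays far from the other 5 were sought among the lymphocyte probe sets and the named genes of the lists. Of 140 groups tested 8 had such an array, where chance flags about 1 in 20, or 7. Among the 28 groups of lymphocyte probe sets there were 2. The dimmer CD3D probe set was at 0.724 on RZ-3, while the other RZ arrays had 20.2 to 40.3. The dimmest CD2 probe set was at 24.7 on HZ-4, while the other HZ arrays had 3.09 to 4.43, so its mean difference of 0.21 rests largely on that array.

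In the wider lists, CD96 was at 48.5 on HZ-1 against 6.39 to 14.4 on the other HZ arrays, CCL5 at 35.2 on HZ-3 against 114.3 to 176.1, and TNF at 12 on HZ-3 against 52.5 to 71. KLRA1 was at 37.1 on RZ-2 against 17.4 to 21.2 on the other RZ arrays. Of the haemoglobin genes, HBM was at 8.87 on RZ-1 against 2.84 to 3.56, and HBB at 4.54 on HZ-6 against 32.7 to 60.2.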

How the results depend on the processing

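For the brightest probe sets of the 7 lymphocyte genes the median difference of -0.81 stayed below 0 under each alternative run, and 6 of the 7 kept their direction. CD3D turned without pair 1, without pair 2 and within pairs 3 to 6. The median over all 14 probe sets, -0.32, was -0.86 within pairs 1 and 2 only and -0.15 within pairs 3 to 6 only. The median correlation of 0.43 was 0.07 with the means of each set of pairs removed.

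Without the replicate block, that is without the pairing of arrays, 831 probe sets passed instead of 1494, with 0 T cell and 0 macrophage genes. The total was 583 with 1 added, 478 on the deposited ratio, 2276 with a mean signal of at least 50, 0 in pairs 1 and 2, 336 in pairs 3 to 6, and 557 to 1540 leaving out each pair. ICOS was the 1 T cell gene that fell. The count was 0 with 1 or 64 added, on the deposited ratio and in either set of pairs, 2 after quantile normalization, and 0 to 1 leaving out each pair. Of cytotoxic genes 0 rose, but 1 with a mean signal of at least 50, 2 in pairs 3 to 6 and 0 to 1 leaving out each pair; 0 fell, but 2 with that filter and 0 to 2 leaving out each pair. Macrophage genes that rose numbered 3 with 1 added, on the deposited ratio and in pairs 3 to 6, 0 in pairs 1 and 2, and 3 to 5 leaving out each pair. Of them 1 fell with that filter, and 1 with every probe set counted. The cause was not tested. Dim signals limit all lymphocyte values.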

Other observations

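Of white blood cell genes outside the T cell lists, SASH3, CD52 and CD48 had the smallest adjusted p among those lower in HZ. SASH3, an adaptor of lymphocytes, averaged 28.2 ± 18.9 in HZ and 55.7 ± 14.2 in RZ (SD, n = 6 each; limma adjusted p = 0.0532) and was lower in HZ in 6 of 6 pairs. CD48, a surface protein that can bind CD2, averaged 88.9 ± 30.0 in HZ and 156.8 ± 98.3 in RZ (SD, n = 6 each; limma adjusted p = 0.0814), also lower in 6 of 6 pairs. CD52 was at -1.07 ± 0.30 (SE; limma adjusted p = 0.0653). HCLS1, a cytoskeletal adaptor of blood cells, was at 0.47 ± 0.15 (SE; limma adjusted p = 0.099) and higher in HZ in 6 of 6 pairs. None of these passed.

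The B cell gene JCHAIN had 62.3 to 233 on the HZ arrays, against 2397 on RZ-1, 2730 on RZ-2 and 66.7 to 330.6 on RZ-3 to RZ-6 (limma adjusted p = 0.202 for HZ against RZ). BLK, a B cell kinase gene, was at -0.78 ± 0.24 (SE; limma adjusted p = 0.0882) and lower in HZ in 6 of 6 pairs. VCAM1, an adhesion molecule that lymphocytes bind, was at 0.69 ± 0.21 (SE; limma adjusted p = 0.0818), in contrast to ICAM1 at -0.59.

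Among probe sets that are not the brightest of their gene, BIRC3, an inhibitor of cell death in the lymphotoxin list, had 1 that fell by 0.71 (limma adjusted p = 0.0341), and CD14 of the macrophage list had 1 that fell by 1.02 (limma adjusted p = 0.0254). Both were named after their values were seen.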
